A study of Mus musculus with 6 samples.

Results

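The genes of the small RNA machinery comprised Drosha and Dgcr8, which release microRNA hairpins in the nucleus, the hairpin exporter Xpo5, the cytoplasmic enzyme Dicer1 with its partners Tarbp2 and Prkra, and the Argonautes Ago1, Ago2, Ago3 and Ago4. These 10 genes were chosen by symbol among the Ensembl genes, and all 10 were found once among the 60193 genes listed. They were measured by RNA-seq in metaphase II (MII) oocytes of female ICR mice, an outbred stock, aged 42 to 45 weeks. All mice had received the gonadotropin PMSG. Oocytes of the IVM group were taken from the ovary at the germinal vesicle stage 46 h after PMSG, freed of cumulus cells with a pipette and matured in M16 medium for 12 h. Mice of the IVO group also received hCG 46 h after PMSG, and ovulated oocytes were taken from their oviducts 14 h later and freed of cumulus cells with hyaluronidase. Each group had 3 samples, and each sample pooled 20 oocytes from 3 mice, so values of single oocytes or animals were not resolved. The route of maturation, the hCG injection, the time since PMSG and the way of removing cumulus cells differed together and cannot be told apart.

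In the microRNA pathway, the Microprocessor of Drosha and its RNA-binding partner Dgcr8 cuts a hairpin out of the primary transcript, Xpo5 carries the hairpin out of the nucleus, and Dicer1 trims it to a short duplex. An Argonaute protein keeps one strand of the duplex as a guide to target mRNAs, and Ago2 is the mammalian Argonaute known for cutting fully matched targets. Mouse oocytes also use Dicer1 and Ago2 for endogenous small interfering RNAs (endo-siRNAs), which come from long double-stranded RNA and bypass the Microprocessor, and the microRNA pathway is known to have little activity in them. The libraries were made from poly(A) RNA copied into full-length cDNA. The values below are thus levels of polyadenylated mRNA of the machinery and not levels of small RNAs. The length of the poly(A) tails, and its part in the differences between the groups, was not measured.

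The unit was FPKM, the fragments on a gene per length of its transcript and per size of the library, so that levels of different genes were compared per length. Judged from the spacing of low values, the libraries held 16450000 to 19350000 fragments in IVM and 17800000 to 18150000 in IVO, and the inferred mean fragment length was 206 to 216 bases in IVM and 248 to 264 bases in IVO samples. The summed FPKM was also higher in IVM (1826738 to 2111776) than in IVO (1560813 to 1643682). All 12 oocyte markers had at least 26.0 FPKM in every sample, and 7 of the 12 were lower in every IVO sample than in every IVM sample. Among these were Zp2 with 398 to 874 FPKM in IVM and 33.6 to 43.6 in IVO and Nlrp5 with 128 to 160 and 26.0 to 49.6. The other 5 (Gdf9, Ooep, H1f8, Dppa3 and Zar1) overlapped, with IVM means 1.15 to 1.83 times the IVO means. Of all genes with a mean of at least 1 FPKM, 32.6% were lower in every IVO sample and 9.62% were higher. The sum of the 12, most of it H1f8 and Dppa3, was 17111 to 20658 in IVM and 13471 to 14699 in IVO. Of 16 cumulus and granulosa markers, 11 were below 1 FPKM in every sample, Amh was listed at 0 in every sample, Foxl2 did not exceed 0.02 FPKM, 4 (Fshr, Cyp19a1, Kitl and Nr5a2) had a mean of at least 1 FPKM, and the sum over the list was 64.1 to 66.3 in IVM and 46.7 to 55.8 in IVO. Of these 16, Nr5a2 was lower in every IVO sample (28.3 to 39.2 FPKM in IVM, 13.5 to 17.8 in IVO), while 4 markers at low level were higher in every IVO sample, namely Has2 (0.04 to 0.14 and 0.17 to 0.37), Tnfaip6 (0 to 0.14 and 0.34 to 0.49), Ptx3 (0 to 0.03 and 0.07 to 0.17) and Fst (0.10 to 0.12 and 0.36 to 1.73). The part of the fragment length and of these cells in the results below was not tested. The 4 blood markers summed to at most 0.21 FPKM in IVM and 3.65 in IVO, and Alas2 was at 0 in every sample.

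The comparison of IVO with IVM asks how the mRNAs of the pathway stand after the 2 routes of maturation. Tarbp2, the double-stranded RNA-binding partner of Dicer1, was lower in IVO oocytes than in IVM oocytes, with a mean of 1.67 ± 0.475 FPKM against 6.36 ± 3.12 FPKM (SD, n = 3 each). It was the only member called a DEG (a differentially expressed gene, |log2FC| ≥ 1 and adjusted p under 0.05 by limma on log2(FPKM + 1), log2FC being IVO minus IVM), and the call was lost under most other settings. Dicer1, the most abundant member, was at 446 ± 32.2 FPKM in IVM and 493 ± 6.58 FPKM in IVO and did not pass the test. In pooled cells, fewer oocytes with a transcript and less RNA per oocyte cannot be told apart.

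Of the 10 members, 8 had a mean of at least 1 FPKM and were tested, while Ago1 and Ago4 were below that level in both groups. Of these 8, 1 was a DEG lower in IVO, beside 17.9% of all 18818 tested genes, and 0 were DEGs higher in IVO, beside 0.606% of all tested genes. An unadjusted p under 0.05 was reached by 2 members, Tarbp2 and Prkra, against 36.9% of all tested genes. The log2FC was negative for 6 members and positive for Dicer1 and Ago2, so that 75% were negative beside 66.0% of all tested genes. The median log2FC was -0.45 over the 8 members and -0.30 over all tested genes. All tested genes include assembled loci, while the members are Ensembl genes. With Ensembl genes only, 13154 genes were tested, with a median log2FC of -0.18, 1972 DEGs lower in IVO and 84 higher. With each library scaled by its median ratio the median of all tested genes was -0.04, and with quantile normalization it was 0.17. Relative to the median of all genes, the log2FC was -1.07 for Tarbp2, -0.53 for Dgcr8, -0.46 for Prkra, -0.21 for Ago3, -0.10 for Xpo5 and -0.08 for Drosha, and 0.44 for both Dicer1 and Ago2. The IVO and IVM samples did not overlap for 3 of the 8 members. Tarbp2 and Prkra were lower in every IVO sample, which held for 32.6% of all tested genes, and Dicer1 was higher in every IVO sample, which held for 9.62%.

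**Figure D1:**
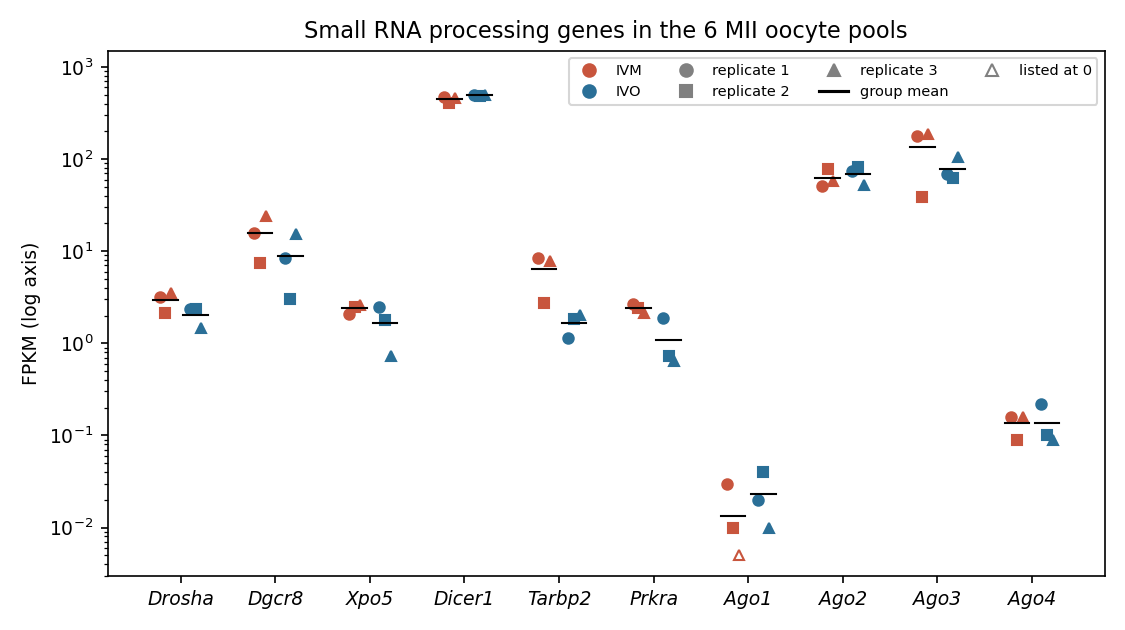
FPKM of the 10 genes on a log axis in the 3 IVM (red) and 3 IVO (blue) samples, with bars for the group means and an open triangle, drawn at the foot of the axis, for a gene listed at 0. Dicer1 lies near 446 to 493 FPKM, the Microprocessor, export and partner genes lie at or below 23.8 FPKM, and Ago1 and Ago4 lie far below Ago2 and Ago3 in every sample.

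Levels of the members spanned from 0 to 498 FPKM. In IVM oocytes the order of the means was Dicer1 (446), Ago3 (134), Ago2 (62.4), Dgcr8 (15.6), Tarbp2 (6.36), Drosha (2.96), Prkra (2.41), Xpo5 (2.39), Ago4 (0.137) and Ago1 (0.0133 FPKM). Neighbours in this order were separate, with no overlap of their 3 samples, at Dicer1 and Ago3, at Ago2 and Dgcr8, at Xpo5 and Ago4, and at Ago4 and Ago1. The ranges of Ago3 and Ago2 overlapped, as did those of Dgcr8 and Tarbp2, of Tarbp2 and Drosha, of Drosha and Prkra, and of Prkra and Xpo5. In IVO oocytes the first 4 places and the last 2 were held by the same genes as in IVM, while Tarbp2 and Prkra each stood a place lower, so the order between them was Drosha (2.05), Tarbp2 (1.67), Xpo5 (1.67) and Prkra (1.08 FPKM). The ranges of neighbours among these 4 overlapped in IVO, while Dgcr8 (8.96 FPKM) was separate from Drosha there.

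Drosha, the nuclear RNase III enzyme that makes the first cut, lies at chr15:12824839-12935474 on the plus strand of GRCm39. Its FPKM was 3.19, 2.15 and 3.55 in IVM1 to IVM3 and 2.35, 2.35 and 1.45 in IVO1 to IVO3. IVM2 lay among the IVO samples, and the groups overlapped. The log2FC was -0.38 ± 0.26 (SE), with a 95% interval from -1.0 to 0.24 and an adjusted p of 0.352 by limma. An estimated 114 to 296 fragments per library stood behind these values.

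Dgcr8, which holds the hairpin for Drosha, lies at chr16:18069575-18107140 on the minus strand. Its FPKM was 15.7, 7.35 and 23.8 in IVM and 8.51, 3.04 and 15.3 in IVO. The replicates of each group differed more than the group means, by up to 3.24-fold in IVM and 5.04-fold in IVO, and the groups overlapped. The log2FC of -0.82 ± 0.58 (SE) had an interval from -2.19 to 0.55 and an adjusted p of 0.355 by limma. It was -0.28 without IVO2, -0.47 without IVM3, -1.25 without IVM2 and -1.29 without IVO3. The kit does not mark strand, and 3062 exonic bases of Dgcr8 overlap Trmt2a on the other strand, so reads of this stretch cannot be assigned to either gene with certainty. Trmt2a had 1.28 to 2.98 FPKM. The exons of Dgcr8 also hold the hairpins Mir1306 and Mir3618 (79 and 88 bases), both listed at 0 in every sample. These stretches are shorter than the inferred mean fragment of every library, so the 0 does not show that the hairpins were absent. Within a sample, the FPKM of Dgcr8 was 1.29 to 10.6 times that of Drosha.

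Xpo5, the exportin that carries hairpins out of the nucleus together with Ran bound to GTP, lies at chr17:46513650-46554529 on the plus strand. Its FPKM was 2.08, 2.46 and 2.62 in IVM and 2.49, 1.79 and 0.73 in IVO. IVO3 stood below the other 5 samples, which lay between 1.79 and 2.62. The log2FC of -0.40 ± 0.31 (SE) had an interval from -1.13 to 0.34 and an adjusted p of 0.404 by limma. It was -0.11 without IVO3 and -0.62 without IVO1.

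Dicer1, the RNase III enzyme that makes both microRNAs and endo-siRNAs, lies at chr12:104654001-104718211 on the minus strand. Its FPKM was 473, 410.5 and 455 in IVM and 498, 486 and 496 in IVO. All 3 IVO samples lay above all 3 IVM samples, within a narrow span: the highest sample was 1.15 times the lowest in IVM and 1.03 times the lowest in IVO. The log2FC was 0.15 ± 0.14 (SE), with an interval from -0.18 to 0.48 and an adjusted p of 0.50 by limma. With quantile normalization the log2FC was 0.66 with an adjusted p of 0.021, and with median-ratio scaling it was 0.47 with an adjusted p of 0.061. Only 3.93% of the tested genes had a higher mean FPKM than Dicer1, and an estimated 74941 to 86672 fragments per library came from it.

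Mouse oocytes are known for a short form of Dicer1 that starts within a retrotransposon in an intron and lacks the first part of the helicase domain. The annotation used here lists 9 transcripts of Dicer1, of which the longest has 27 exons and 9851 bases, and none of the 9 starts in the intron after exon 6 of that transcript (chr12:104690330-104694591). The value per gene does not separate the forms, so the share of the short form was not measured.

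Dicer1 stood far above the genes that act before it in the same sample. Its FPKM was 128 to 191 times that of Drosha in IVM and 207 to 342 times in IVO samples. The log2 ratio of Dicer1 to Drosha was higher in IVO by 0.68, which is 1.60-fold, and the groups did not overlap. The ratio of Dicer1 to a gene was higher in every IVO sample for 37.5% of the 18817 other tested genes. With 3 samples against 3, the smallest p that the two-sided exact permutation test allows is 0.1. The ratio of Dicer1 to Drosha reached it, and its p adjusted over the 5 ratios compared was 0.5. The same comparison gave a difference of 0.40 for Drosha to Dgcr8 (exact p = 0.8, adjusted 1.0) and of -0.83 for Xpo5 to Dicer1 (exact p = 0.2, adjusted 0.5), both with overlapping groups. Without IVO3 the difference for Xpo5 to Dicer1 was -0.31. Dicer1 was 167 to 679 times Xpo5 and 19.1 to 160 times Dgcr8 across the 6 samples.

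Tarbp2 and Prkra encode related proteins with double-stranded RNA-binding domains that sit on the helicase domain of Dicer1. Tarbp2 lies at chr15:102426627-102432111 on the plus strand, and its FPKM was 8.48, 2.77 and 7.82 in IVM and 1.14, 1.83 and 2.05 in IVO. Every IVO sample was below every IVM sample, and IVM2 stood closer to the IVO samples than to the other IVM samples. The mean was 3.80-fold lower in IVO, with a log2FC of -1.36 ± 0.39 (SE), an interval from -2.29 to -0.44 and an adjusted p of 0.044 by limma. The call was lost with median-ratio scaling (log2FC -1.11, adjusted p = 0.075), quantile normalization (-0.91, adjusted p = 0.111) and the trend with gene length removed (-1.15, adjusted p = 0.079). It was also lost without IVM1, IVM3, IVO1, IVO2 or IVO3 (adjusted p from 0.075 to 0.137), and it held without IVM2 (log2FC -1.79, adjusted p = 0.015).

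Tarbp2 has a short transcript, and its level rested on an estimated 71 to 197 fragments in the IVM libraries and 26 to 47 in the IVO libraries. In the length class of 1000 to 2000 bases, to which Tarbp2 and Prkra belong, 14.6% of 3114 tested Ensembl genes were DEGs lower in IVO and the median log2FC was -0.18. The annotated locus Gm18584 matches 603 bases of Tarbp2 at 99.3% identity. It was at 0 FPKM in every IVM sample and at 0.1, 0 and 0.15 FPKM in IVO1 to IVO3. The gene Map3k12 overlaps 330 exonic bases on the other strand and had 0.27 to 0.96 FPKM in IVM and 0.02 to 0.22 in IVO, the same order of groups as Tarbp2. The part of this locus and of this overlap in the values of Tarbp2 was not tested.

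Prkra, also known as PACT and as an activator of the protein kinase PKR, lies at chr2:76427715-76478405 on the minus strand. Its FPKM was 2.68, 2.40 and 2.15 in IVM and 1.86, 0.73 and 0.64 in IVO. The groups did not overlap, and IVO1 lay closer to the IVM samples than to IVO2 and IVO3. The mean was 2.24-fold lower in IVO, and the log2FC of -0.76 ± 0.29 (SE) had an interval from -1.45 to -0.07, an unadjusted p of 0.0356 and an adjusted p of 0.107 by limma. It thus did not pass the test. With a pseudocount of 0.1 in place of 1 the log2FC of Prkra was -1.23, with an adjusted p of 0.114 by limma. An estimated 58 to 65 fragments per IVM library and 16 to 46 per IVO library stood behind the values of Prkra. The gene Osbpl6 overlaps 961 exonic bases of Prkra on the other strand and had 0.03 to 0.21 FPKM in IVM and 0.05 to 0.11 in IVO. The part of this overlap in the values of Prkra was not tested.

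Relative to Dicer1 in the same sample, both partners were scarcer in IVO. The FPKM of Dicer1 was 55.8 to 148 times that of Tarbp2 in IVM and 242 to 437 times in IVO, and it was 171 to 212 times that of Prkra in IVM and 268 to 774 times in IVO. Neither pair of ranges overlapped, and the ratio of Dicer1 to a gene was likewise higher in every IVO sample for 37.5% of the 18817 other tested genes. Between the partners themselves the balance varied: Tarbp2 was 0.613 to 3.64 times Prkra, with the lowest value in IVO1, where Tarbp2 was the lower of both. The log2 ratio of Tarbp2 to Prkra differed between the groups by -0.48 (exact permutation test, two-sided, p = 0.6, adjusted 1.0), less than the spread within each group.

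**Figure D2:**
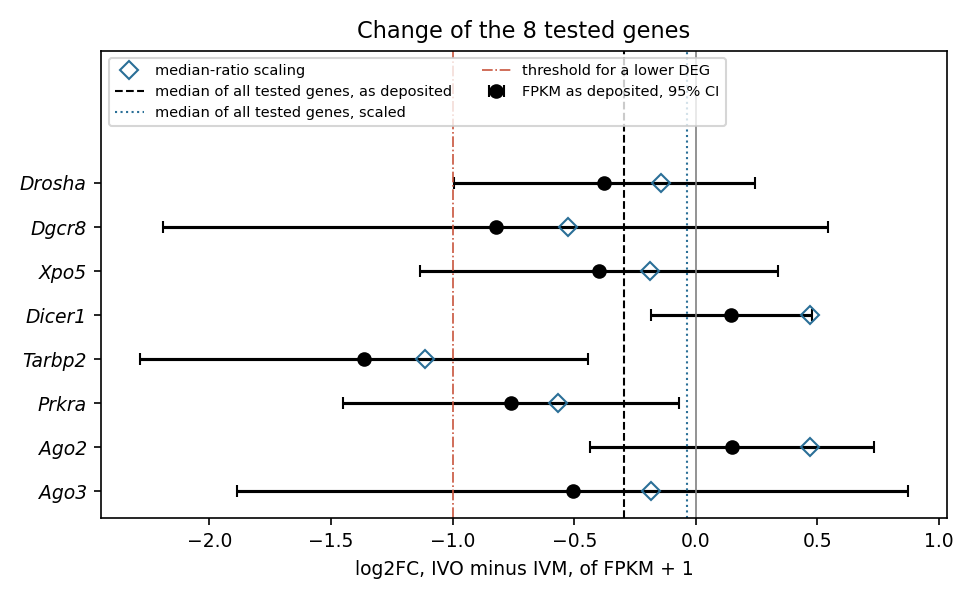
Log2FC of FPKM + 1 (IVO minus IVM) of the 8 tested genes with 95% intervals, beside the same value after median-ratio scaling (diamonds), the median of all tested genes under both scalings and the threshold for a lower DEG. The intervals of Tarbp2 and Prkra lie below 0, Tarbp2 alone passes -1 with its estimate, and scaling moves every estimate to the right.

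Among the Argonautes, Ago2 and Ago3 made up nearly all of the transcripts. Ago2, the slicing Argonaute, lies at chr15:72967693-73056784 on the minus strand, and its FPKM was 51.1, 78.6 and 57.6 in IVM and 73.3, 81.6 and 52.9 in IVO. The groups overlapped, and the log2FC of 0.15 ± 0.25 (SE) had an interval from -0.44 to 0.73 and an adjusted p of 0.708 by limma. The mean was 62.4 ± 14.4 FPKM in IVM and 69.3 ± 14.8 FPKM in IVO (SD, n = 3). Dicer1 was 5.22 to 9.37 times Ago2 across the samples, and the log2 ratio of Dicer1 to Ago2 had a mean of 2.86 ± 0.43 in IVM and 2.86 ± 0.34 in IVO (SD, n = 3; exact permutation p = 1.0).

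Ago3 had 176, 39.2 and 185 FPKM in IVM and 68.4, 62.0 and 105 FPKM in IVO. IVM2 held the lowest value of all 6 samples, while IVM1 and IVM3 held the highest, so the IVM samples enclosed the IVO samples. The log2FC of -0.51 ± 0.59 (SE) had an interval from -1.89 to 0.87 and an adjusted p of 0.580 by limma. Without IVM2 the log2FC was -1.23 with an adjusted p of 0.037, past both thresholds for a DEG. IVM2 was also the library in which Dgcr8 and Tarbp2 stood more than 2-fold below both other IVM samples, and 5.16% of all tested genes did so in IVM2, against 3.39% to 5.42% in the other 5 libraries.

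As a share of the summed FPKM of the 4 Argonautes, Ago3 made up 77.5%, 33.3% and 76.2% in IVM and 48.2%, 43.1% and 66.5% in IVO. Ago2 made up 22.4%, 66.7% and 23.7% in IVM and 51.6%, 56.8% and 33.5% in IVO. In IVM2, IVO1 and IVO2 Ago2 was thus the larger part, and in IVM1, IVM3 and IVO3 Ago3 was. The mean share of Ago3 was 62.3% ± 25.2 in IVM and 52.6% ± 12.3 in IVO (SD, n = 3; exact permutation test, two-sided, p = 0.7, adjusted over the 4 genes 0.9). The share of Ago4 was 0.0708% in IVM and 0.0938% in IVO (exact p = 0.9), and that of Ago1 was 0.00722% and 0.0161% (exact p = 0.4, adjusted 0.9).

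**Figure D3:**
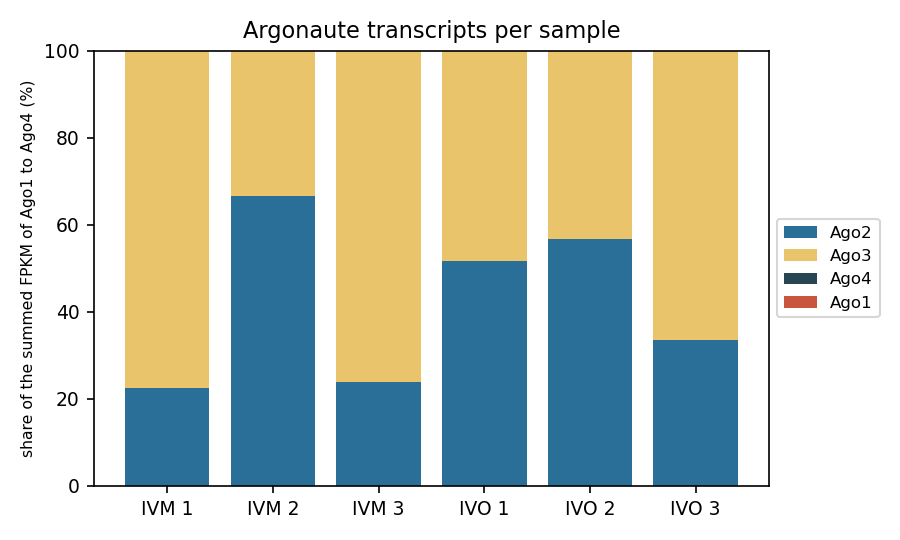
Share of each Argonaute, in percent, of the summed FPKM of Ago1 to Ago4 in each of the 6 samples. Ago2 and Ago3 fill the bars, Ago3 ranges from 33.3% to 77.5%, and Ago4 and Ago1 are too small to be seen.

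Ago1 and Ago4 were near the limit of detection. Ago4 had 0.16, 0.09 and 0.16 FPKM in IVM and 0.22, 0.10 and 0.09 FPKM in IVO, from an estimated 10 to 25 fragments per library. Ago1 had 0.03, 0.01 and 0.00 FPKM in IVM and 0.02, 0.04 and 0.01 FPKM in IVO, from 0 to 5 fragments. A count of 3 fragments would correspond to 0.0221 to 0.0260 FPKM for Ago1 across the libraries, so most of its values lay at or under this floor. Taking Ago1 at no less than that floor in each library, Ago2 was at least 1703-fold and Ago3 at least 1550-fold above it in every sample. Ago2 was 319 to 873 times Ago4, and Ago3 was 311 to 1167 times Ago4. The floor covers counting error alone, because PCR copies of a molecule are counted as well.

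Ago3, Ago1 and Ago4 are neighbours on the minus strand of chromosome 4. In GRCm39 Ago3 spans chr4:126225496-126323362, Ago1 chr4:126328805-126362498 and Ago4 chr4:126383334-126427406. Between Ago3 and Ago1 lie 5442 bases and between Ago1 and Ago4 20835 bases, with 0 protein-coding genes in either gap. Within this stretch the level fell from a mean of 134 FPKM for Ago3 to 0.0133 FPKM for Ago1 in IVM, while in IVO it fell from 78.5 to 0.0233 FPKM.

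**Figure D4:**
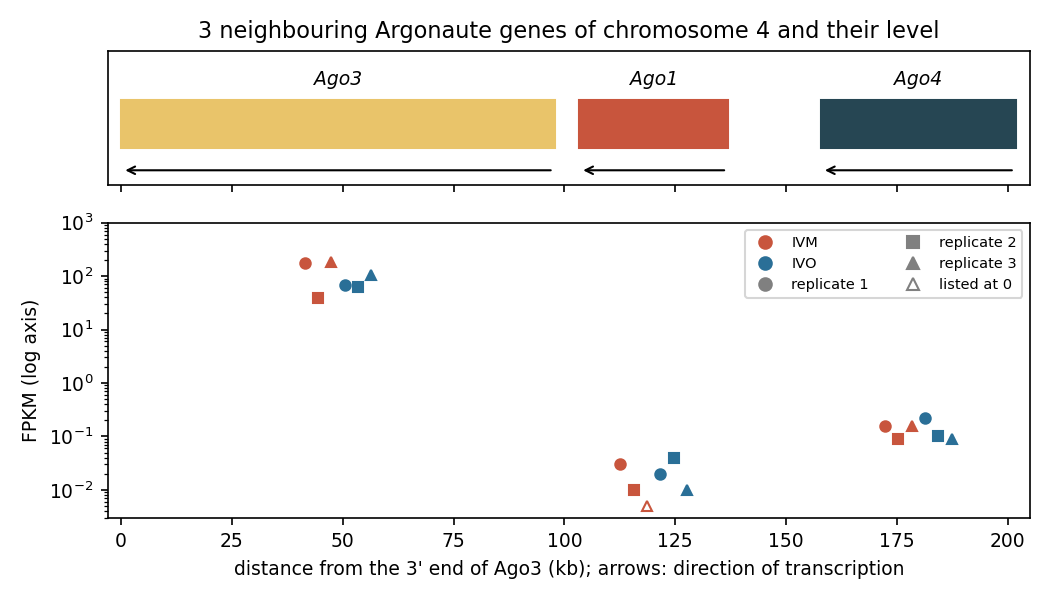
Map of the 3 neighbouring Argonaute genes of chromosome 4, drawn to scale in kb from the end of Ago3, above their FPKM in each sample on a log axis. All 6 samples of Ago3 lie between 39.2 and 185 FPKM, and no sample of Ago1 or Ago4 exceeds 0.22 FPKM.

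The sequences just before the starts of these 3 genes are shown because the genes are neighbours with unlike levels. They are the 250 bases before each start in RefSeq on GRCm38.p6, the build of that table, on the minus strand and from 5′ to 3′, with each CG dinucleotide in capitals. The table held 3 of the 4 Argonautes and lacked Ago2, and for Ago1, with 2 starts, the upstream one is shown. They lie at chr4:126429543-126429792 for Ago3, at chr4:126468632-126468881 for Ago1 and at chr4:126533459-126533708 for Ago4.
Ago3: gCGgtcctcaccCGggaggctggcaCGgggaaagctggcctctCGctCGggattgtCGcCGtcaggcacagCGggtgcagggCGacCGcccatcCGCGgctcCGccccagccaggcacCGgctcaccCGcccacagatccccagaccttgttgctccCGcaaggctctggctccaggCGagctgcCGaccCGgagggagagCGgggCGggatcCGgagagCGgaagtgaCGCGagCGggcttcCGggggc
Ago1: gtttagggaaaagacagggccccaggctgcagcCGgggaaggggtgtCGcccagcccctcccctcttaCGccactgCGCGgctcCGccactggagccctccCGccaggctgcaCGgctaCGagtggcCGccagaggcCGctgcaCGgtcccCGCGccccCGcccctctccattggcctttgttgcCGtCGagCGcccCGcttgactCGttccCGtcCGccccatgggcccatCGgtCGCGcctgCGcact
Ago4: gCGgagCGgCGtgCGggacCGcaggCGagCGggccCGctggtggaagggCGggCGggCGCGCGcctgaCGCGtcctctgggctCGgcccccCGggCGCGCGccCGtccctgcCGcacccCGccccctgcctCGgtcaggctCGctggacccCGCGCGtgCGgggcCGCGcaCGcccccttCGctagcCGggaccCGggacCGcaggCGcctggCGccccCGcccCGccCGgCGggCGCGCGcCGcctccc

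All 3 windows were rich in CG, a feature of the CpG island promoters known from many housekeeping genes. Ago3 had 27 CG dinucleotides, Ago1 26 and Ago4 46, against a median of 6 over 32851 promoter windows of the same length, and their GC content was 73.6%, 72.4% and 85.6% against a median of 52.4%. The window of Ago4 had more CG than 99.7% of promoters, and those of Ago3 and Ago1 more than 91.4% and 90.4%. On either strand, TATAAA was found in none of the 3 windows and in 12.4% of all promoters. GGGCGG, which itself holds a CG, was found 4, 2 and 5 times in Ago3, Ago1 and Ago4 and at least once in 32.7% of all promoters, and CCAAT once in Ago1 and in 33.8% of all promoters. CANNTG, the E-box, was found in none of the 3 windows and in 66.2% of all promoters. The shares over all promoters were not matched for the high GC content of the 3 windows. Ago3 and Ago1, the highest and the lowest of the 3 in level, were close in CG count and GC content. The part of these windows in the levels was not tested, and which starts the oocytes use was not measured. A match or its absence describes only these letters in this window.

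Other genes of the pathway were taken as 3 lists: partners of the Microprocessor and of export, partners of the silencing complex, and genes of small RNA modification and turnover. Of their 34 genes 30 were tested, and 5 passed an adjusted p under 0.05, beside 23.4% of all tested genes. They were 3 lower and 2 higher in IVO, beside 21.5% and 1.87% of all tested genes. The log2FC was negative for 18 and positive for 12 of the 30.

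Among 7 tested of 8 Microprocessor and export partners, 1 passed higher in IVO and 0 lower, with a median log2FC of -0.09. Srsf3, a splicing factor that also binds a motif of primary microRNAs, had 50.4, 59.8 and 56.9 FPKM in IVM and 108, 109.6 and 102 FPKM in IVO. Its samples were tight within each group and far apart between groups, with a log2FC of 0.93 and an adjusted p of 0.009 by limma. It passed in all 6 fits that left out 1 sample and under all 11 other settings. The others tested, among them the DEAD-box helicases Ddx5 and Ddx17 and the export GTPase Ran, did not pass, and Srrt was below the level tested.

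Among 13 tested of 15 silencing partners, 2 passed lower and 1 higher in IVO, and the median log2FC was -0.01. Mov10, an RNA helicase that binds Argonautes, had 141, 79.8 and 40.9 FPKM in IVM and 30.4, 18.8 and 29.2 FPKM in IVO. The IVM samples differed by more than 3-fold among themselves but stayed above the IVO samples, and the log2FC was -1.56 with an adjusted p of 0.042 by limma. Tsn and Tsnax encode translin and its partner TRAX, which together form the C3PO nuclease that removes passenger strands. Tsnax had 9.30, 5.70 and 7.93 FPKM in IVM and 4.52, 3.30 and 3.03 FPKM in IVO, a log2FC of -0.90 (adjusted p = 0.042 by limma). Tsn had 119, 126 and 141 FPKM in IVM and 185, 193 and 182 FPKM in IVO, a log2FC of 0.54 (adjusted p = 0.047 by limma). Tsn was far more abundant than Tsnax in every sample. Mov10, Tsnax and Tsn each passed in only 1 of the 6 fits that left out 1 sample (Mov10 without IVM3, Tsnax without IVM2, Tsn without IVM3), with adjusted p up to 0.121, 0.129 and 0.146, and under 5, 3 and 8 of the 11 other settings, and each kept its direction in all of these. Tnrc6b, a GW182 protein that links Argonautes to deadenylation, was chosen after its values were seen: it had 4525, 6138 and 4208 FPKM in IVM and 2991, 2962 and 3845 FPKM in IVO, above every member, with a log2FC of -0.59 and an adjusted p of 0.061 by limma.

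Among 10 tested of 11 genes of modification and turnover, 1 passed lower in IVO and 0 higher, and the median log2FC was -0.05. Tut4, a terminal uridylyltransferase that adds uridines to microRNA precursors and to mRNAs with short poly(A) tails, had 223, 230 and 129 FPKM in IVM and 42.4, 56.1 and 97.7 FPKM in IVO. The groups did not overlap, and the log2FC was -1.59 with an adjusted p of 0.020 by limma. It passed in 2 of the 6 fits that left out 1 sample (without IVM3 or IVO3, adjusted p up to 0.078 in the others) and under 6 of the 11 other settings. With median-ratio scaling, the silencing and turnover lists had 0 genes that passed lower in IVO and 1 each that passed higher. The Microprocessor list then had 2 that passed higher and 0 lower. Over all tested genes, this scaling gave 2102 DEGs lower and 388 higher, against 3366 and 114 as deposited.

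**Figure D5:**
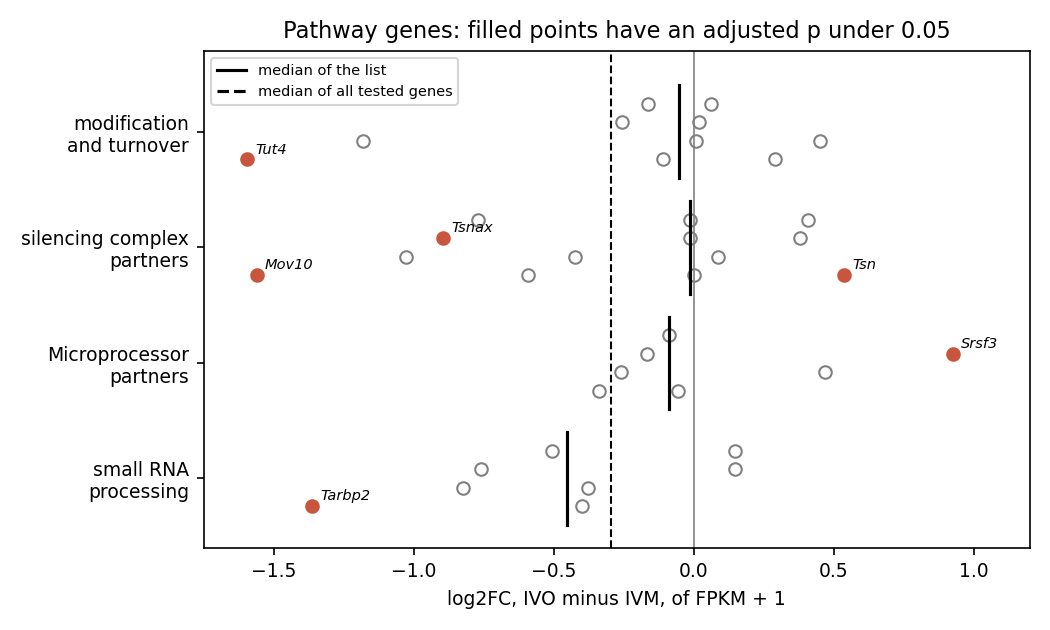
Log2FC (IVO minus IVM, of FPKM + 1) of the tested genes of the small RNA machinery and of 3 lists of its partners, with filled points for an adjusted p under 0.05. The median of each list (bar) stands beside that of all tested genes (-0.30, dashed), and Tarbp2, Srsf3, Mov10, Tsnax, Tsn and Tut4 are the filled points.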

How the data were processed

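RNA-seq was performed on 3 IVM and 3 IVO pools of MII oocytes (SMART-Seq v4 and Nextera XT kits, paired ends, NovaSeq 6000). The authors filtered reads (SeqPrep, Sickle), mapped them with Hisat2 (2.1.0 in the submitters' processing notes) on GRCm39 and deposited FPKM per gene and sample from RSEM (1.3.3), with a gene length and the group means, which were not used. The authors ran DESeq2 on counts, which FPKM do not allow.

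All 18818 genes with a mean of at least 1 FPKM were tested with limma 3.58.1 in R 4.3.3 (lmFit, eBayes with trend) on log2(FPKM + 1), IVO against IVM, two-sided, with Benjamini-Hochberg adjustment over all tested genes. The pseudocount of 1 understates changes of low genes. The FPKM entered without further scaling, and only the group was in the model. DEGs had |log2FC| ≥ 1 and an adjusted p under 0.05. Shares and ratios within a sample were compared by exact permutation tests (scipy 1.17.1), for which 3 against 3 samples allow no p under 0.1. The fit was tested on simulated data.

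Depth and fragment length were inferred from low values, worth at most 5.5 fragments, among 13829 genes with 1 transcript. Per library, 847 to 1053 values were used, of which 83.0% to 85.0% lay within 0.2 of a whole fragment. Depth and length were chosen to bring these values closest to whole fragments, so this share is not an independent check. Coordinates, overlaps and copies (at least 95% identity over 200 bases) came from the GENCODE annotation of GRCm39, and promoters from RefSeq (GRCm38.p6). The members and lists were chosen with earlier results of these data known. All members were named, and of the other lists the genes with an adjusted p under 0.05. As alternatives, median-ratio, quantile and equal-sum scaling, a pseudocount of 0.1, a mean of at least 5 FPKM or no filter, Ensembl genes only, no trend, a replicate block, removal of the trend with gene length by lowess (span 0.3), and leaving out each sample were tried. Same-numbered samples of the groups did not deviate together, so the main fit holds no block. Alternative splicing was not analysed here.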

Additional observations from a re-analysis of the deposited data

How the results depend on the processing

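Of 340 values recomputed under other settings, 267 counted as the same and 73 did not: 51 moved, 12 lost a call, 1 gained one and 9 changed sign. A log2FC of a member counted as the same if its direction and call were kept, and a count if it stayed within 1.5 times. A share or ratio counted as the same on direction alone, whatever its size. The share of Ago2, for example, counted so at differences from 2.1 to 24.2 percentage points, against 9.69 in the main result. Tarbp2 (log2FC -1.36) was no longer a DEG without a filter on low values (-1.36, adjusted p = 0.106), with scaling to the same sum (-1.12) or by the median ratio (-1.11), quantile normalization (-0.91), the replicate block (-1.36, adjusted p = 0.072), the length trend removed (-1.15) and the length trend removed with replicate block (-1.15, adjusted p = 0.129), and it remained one with a pseudocount of 0.1, with Ensembl genes only and without the trend. Under each setting that lost it, and at a mean of at least 5 FPKM, where Tarbp2, Drosha, Prkra and Xpo5 were too low to be tested, 0 members were lower DEGs. No member was a higher DEG under any setting. Leaving out 1 sample gave 0 to 2 lower DEGs, a log2FC of -1.79 to -1.13 for Tarbp2 of -1.23 to -0.13 for Ago3, of -1.29 to -0.28 for Dgcr8, of -0.62 to -0.11 for Xpo5, of -0.53 to -0.23 for Drosha, of -1.01 to -0.61 for Prkra, of 0.09 to 0.19 for Dicer1 and of 0.02 to 0.33 for Ago2.

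Quantile normalization turned the log2FC of Drosha to 0.055 and of Xpo5 to 0.024. Leaving out 1 sample moved the difference between groups from -0.00757 to 0.0414 percentage points for the share of Ago4, from -1.0 to 0.26 for the log2 ratio of Tarbp2 to Prkra, from -0.35 to 1.16 for Drosha to Dgcr8, from -1.19 to -0.31 for Xpo5 to Dicer1, from 0.45 to 0.84 for Dicer1 to Drosha and from -0.24 to 0.17 for Dicer1 to Ago2.

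Microprocessor partners that passed higher numbered 2 with median-ratio scaling, quantile normalization, the same sum and the length trend removed. Silencing partners that passed lower numbered 0 without a filter, with median-ratio scaling, quantile normalization, the same sum, and the length trend removed with and without the block, and 1 with the replicate block; those that passed higher numbered 2 with the same sum and 0 without the trend, with the block and with length trend and block. Turnover genes that passed lower numbered 0 with median-ratio scaling, quantile normalization, the block, and the length trend removed with and without the block, and those that passed higher numbered 2 with quantile normalization and 1 with median-ratio scaling. Leaving out 1 sample gave 0 to 1 silencing partners lower and 0 to 1 higher, and 0 to 1 turnover genes lower. The cause of these changes was not tested.

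Over all tested genes, DEGs numbered 3366 lower and 114 higher, 1580 and 1097 with quantile normalization, 2102 and 388 with median-ratio scaling, 1511 and 557 with the length trend removed, and 2899 and 92 with the block. The replicate numbers are shared by both groups in the labels. The correlation of same-numbered samples, in their deviations from the group means, was -0.062, -0.018 and -0.107, which showed no pairing. With 3 samples per group, this check cannot exclude that same-numbered pools were handled together. The precision of Ago1, Ago4, Prkra and Tarbp2 is limited by their few fragments.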
